A study of Mus musculus with 18 samples.

Results

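The genes described here are 40 genes of cell division, measured in mouse endothelial cells, which form the inner lining of vessels and heart chambers. They were taken by gene symbol from a fixed list of 23 mitosis genes and 17 DNA replication genes. All 40 were found among the 17513 genes of the heart table and among the 17242 genes of the liver table. All 40 passed the filter on low counts in the heart, which left 13542 genes, and 37 passed it in the liver, which left 13115. Bub1, Ccnb1 and Hmmr did not pass in the liver.

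RNA from heart endothelial cells was sequenced from wild-type adult male mice under homeostasis, in 4 regions named Apex, LV, VS and OR in the labels, 3 libraries per region. Liver endothelial cells came from adult male mice under homeostasis that carried 3 alleles, Ki67-CrexER, Cdh5-DreER and R26-RL-tdT. They were split into tdTomato-positive and tdTomato-negative cells, with 3 libraries each, so both liver groups share the same genotype. Ki67-CrexER is driven by the proliferation gene Mki67 and Cdh5-DreER by the endothelial gene Cdh5, and the 2 recombinases act on the reporter R26-RL-tdT. A recombined reporter is a permanent mark in the DNA, so a tdTomato-positive cell need not be dividing when it is collected. Tamoxifen dose and timing, and the strain background, are not given in the sources used here. Nothing in the labels says that libraries of a group came from separate mice, so every p-value measures the spread between these libraries, which may be technical. In bulk RNA, fewer cells of a type and less RNA per cell cannot be told apart.

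A dividing cell copies its DNA once in S phase and separates the copies in mitosis. Replication genes are induced from late G1 by E2F transcription factors, while mitosis genes peak later, in G2 and M, and are switched on by complexes built around MYBL2 and FOXM1. Adult endothelial cells of heart and liver are mostly quiescent. Many replication proteins, such as the MCM helicase subunits and PCNA, are kept in cells or used in DNA repair, so their mRNA is found outside S phase as well.

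The promoters of 4 mitosis and 4 replication members are shown, because textbook accounts of their control set the groups apart by such letters. Not every window shown holds them. Letters in capitals are matches to any of 3 motifs on either strand, namely the cell cycle homology region (CHR, TTTGAA or TTCGAA), the CCAAT box (CCAAT) and an E2F motif (TTTCCCGC, TTTGGCGC, TTTCGCGC or TTTGCCGC). Each sequence is the 150 bases before 1 annotated start of the gene, 5′ to 3′ on the strand of the gene, from RefSeq on GRCm38.p6. Other transcripts of the same gene can start elsewhere.
Top2a, chr11:99024190-99024339, minus strand: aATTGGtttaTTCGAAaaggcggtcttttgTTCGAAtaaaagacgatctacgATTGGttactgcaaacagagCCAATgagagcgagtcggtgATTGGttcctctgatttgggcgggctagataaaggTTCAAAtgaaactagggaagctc
Kif11, chr19:37376232-37376381, plus strand: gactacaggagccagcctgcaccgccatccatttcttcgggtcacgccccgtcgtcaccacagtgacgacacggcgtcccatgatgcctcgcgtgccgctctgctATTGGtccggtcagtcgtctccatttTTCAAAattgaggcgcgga
Cdk1, chr10:69352913-69353062, minus strand: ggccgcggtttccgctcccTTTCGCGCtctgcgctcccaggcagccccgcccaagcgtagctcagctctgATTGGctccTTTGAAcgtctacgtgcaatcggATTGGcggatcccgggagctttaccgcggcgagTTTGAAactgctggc
Ccnb2, chr9:70421555-70421704, minus strand: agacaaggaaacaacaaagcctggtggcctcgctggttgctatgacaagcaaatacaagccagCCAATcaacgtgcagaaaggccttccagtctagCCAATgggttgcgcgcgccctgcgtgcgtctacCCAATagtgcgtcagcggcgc
Mcm6, chr1:128359706-128359855, minus strand: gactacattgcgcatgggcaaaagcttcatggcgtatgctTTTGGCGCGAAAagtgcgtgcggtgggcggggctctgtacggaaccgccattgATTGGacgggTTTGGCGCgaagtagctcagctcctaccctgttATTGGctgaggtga
Mcm5, chr8:75109359-75109508, plus strand: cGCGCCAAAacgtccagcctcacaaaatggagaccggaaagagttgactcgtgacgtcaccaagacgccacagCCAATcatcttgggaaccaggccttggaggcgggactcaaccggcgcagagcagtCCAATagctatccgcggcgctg
Pola1, chrX:93632156-93632305, minus strand: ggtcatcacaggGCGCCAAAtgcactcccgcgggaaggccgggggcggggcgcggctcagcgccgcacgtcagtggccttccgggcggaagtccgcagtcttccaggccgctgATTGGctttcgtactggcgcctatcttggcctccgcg
Mcm3, chr1:20820313-20820462, minus strand: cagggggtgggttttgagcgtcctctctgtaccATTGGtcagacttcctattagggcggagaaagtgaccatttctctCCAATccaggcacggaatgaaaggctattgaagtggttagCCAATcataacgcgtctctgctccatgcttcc

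The Top2a window held 3 CHR and 4 CCAAT matches, that of Cdk1 2 of each with 1 E2F match, that of Kif11 1 of each and that of Ccnb2 3 CCAAT matches. Mcm6 held 3 E2F matches, a pair of which overlap on opposite strands, and 2 CCAAT matches. Mcm5 held 1 E2F and 2 CCAAT matches, Pola1 1 of each, and Mcm3 3 CCAAT matches with no E2F match. RefSeq windows were matched for 33 members, 19 of mitosis and 14 of replication. In the 250 bases before the start, a CHR match was present in 7 of 19 mitosis windows (36.8%), 3 of 14 replication windows (21.4%) and 17.4% of all 27018 windows. An E2F match was present in 1 of 19 mitosis windows (5.26%), 5 of 14 replication windows (35.7%) and 1.91% of all windows. CCAAT was frequent in both classes, in 16 of 19 (84.2%) and 11 of 14 (78.6%), against 34.5% of all windows. At least 2 CCAAT matches were present in 10 of 19 mitosis windows (52.6%), 5 of 14 replication windows (35.7%) and 10.5% of all windows. In the printed 150 bases, CHR was matched in 26.3% of mitosis, 7.14% of replication and 9.89% of all windows. E2F was matched there in 5.26%, 28.6% and 1.26%, in that order. The mitosis windows shown hold CHR, and the replication windows shown hold E2F, more often than their classes do. A match is a description of these letters and not evidence of binding.

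Total counts per library were between 21590400 and 27720154 in the heart and between 23715769 and 26538590 in the liver. Endothelial markers were abundant, with a summed level over 7 genes of 8895 to 11160 CPM (read counts scaled to library size) in the heart and 5252 to 6874 CPM in the liver. CPM here use edgeR's TMM factors, and levels of different genes are compared only in the deposited TPM, which account for gene length. The heart and liver tables were normalized separately and were not tested against each other.

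Replication genes were the more abundant class in both organs. By mean TPM over the 12 heart libraries, replication members ranged from Pcna, the sliding clamp of DNA polymerases, at 115.8 TPM to Pole, the catalytic subunit of polymerase epsilon, at 0.278 TPM. Mcm6 (54.1 TPM), Mcm3 (45.7 TPM) and Rrm1 (23.9 TPM) followed Pcna. Mitosis members ranged from Ube2c, the ubiquitin-conjugating enzyme of the anaphase-promoting complex, at 13.7 TPM to Cenpe, a kinetochore motor, at 0.614 TPM. Cdc20 (12.7 TPM), Birc5 (9.79 TPM) and Ccnb2 (8.02 TPM) followed Ube2c. Ranges of neighbouring genes in this order overlap widely over the libraries.

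**Figure D1:**
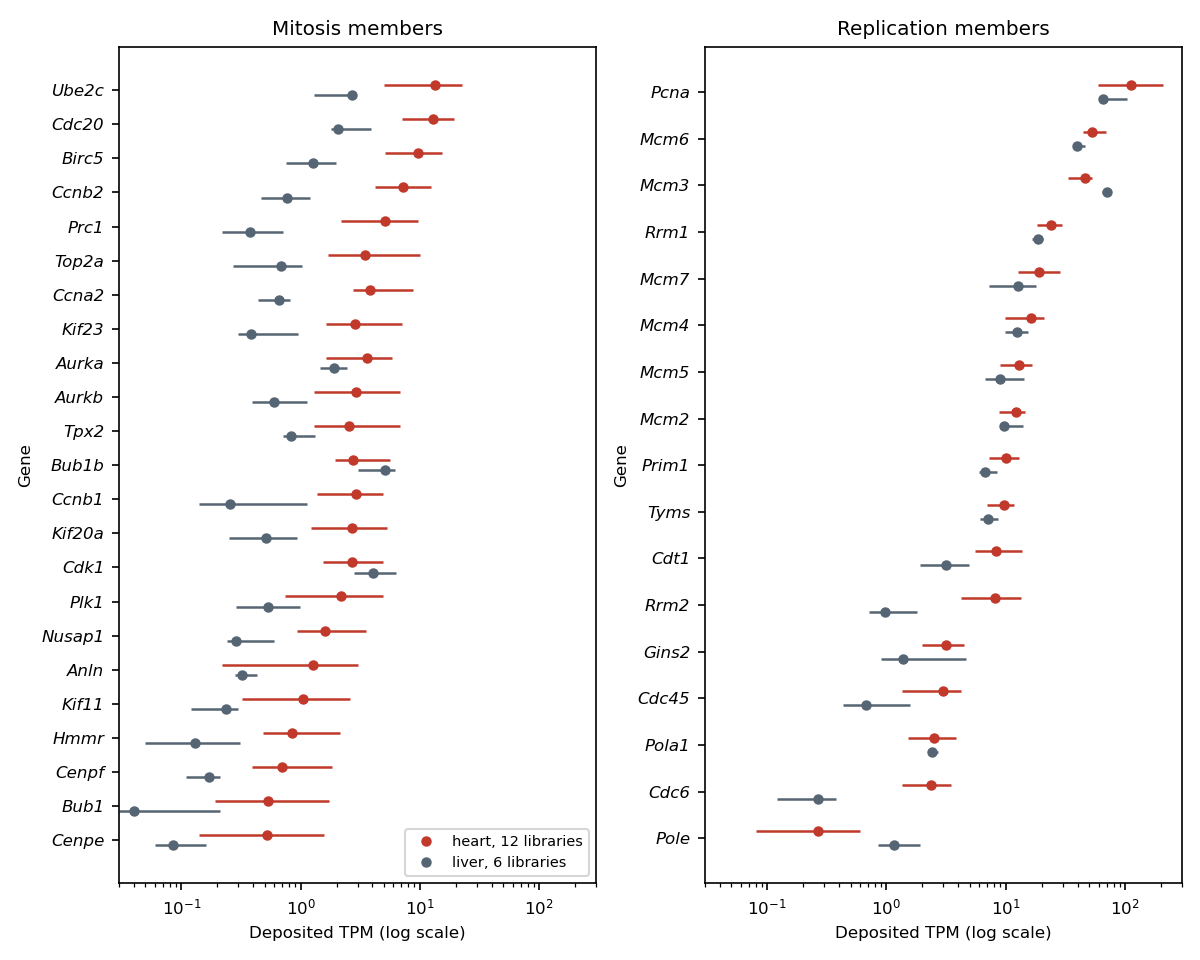
Deposited TPM on a log axis for each mitosis member (left) and replication member (right), with the median as a point and the lowest to highest library as a line, in 12 heart libraries (red) and 6 liver libraries (grey). The 2 tables were normalized separately. Pcna, Mcm6 and Mcm3 are the 3 highest genes in the heart, and Bub1, at 0 in 1 liver library, runs off the axis.

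The mitosis class varied more between heart libraries than the replication class. The highest CPM of a gene over its lowest, across the 12 libraries, had a median of 3.8 for mitosis members (2.4 to 12.1) and 1.96 for replication members (1.34 to 6.69). Counting error widens this ratio at low counts, and mitosis members mostly had fewer counts than replication members. In the liver the medians were 2.43 and 1.83. The summed level of the 23 mitosis members was 197, 192 and 208 CPM in Apex, 149.5, 108 and 77.0 in LV, 142, 77.5 and 93.1 in VS, then 88.8, 112 and 131 in OR. Apex was the highest region and did not overlap any other, and LV 1 and VS 1 were the next highest libraries. The summed level of the 17 replication members was 454, 509 and 552 CPM in Apex, 421, 491 and 429 in LV, 431, 466 and 446 in VS, then 425, 551 and 509 in OR. These overlap between all 4 regions.

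**Figure D2:**
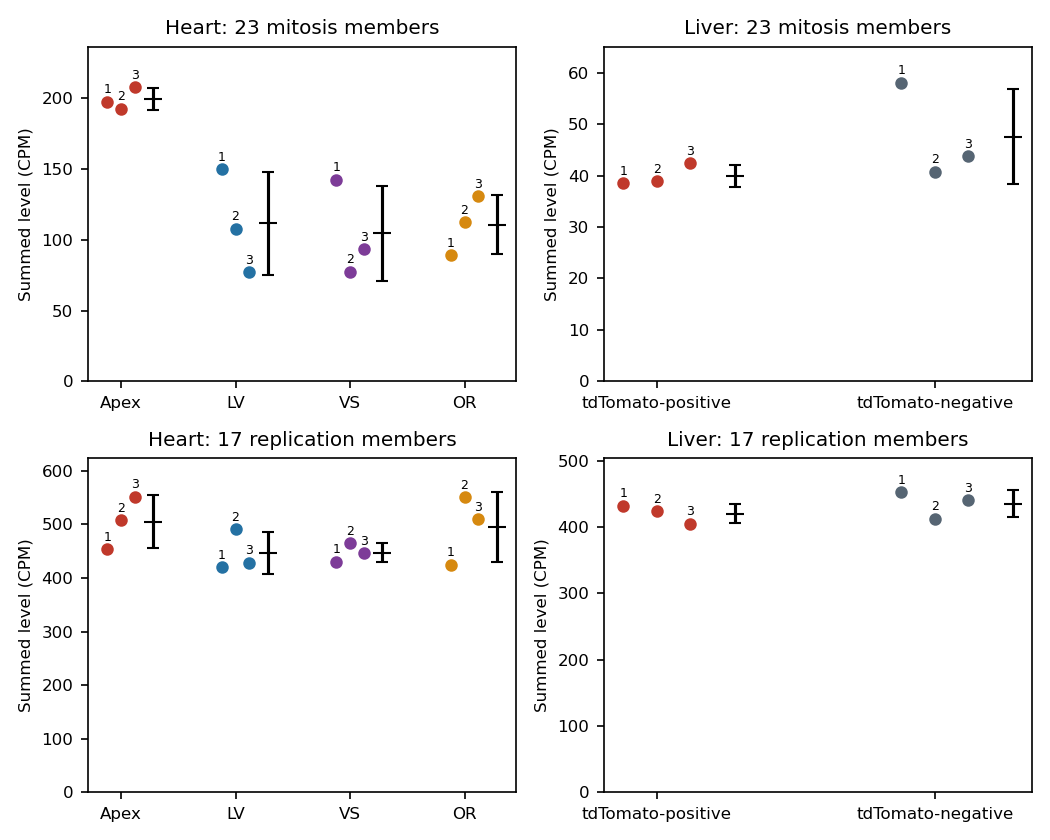
Summed TMM-scaled CPM of the mitosis members (top) and replication members (bottom) in each heart library (left) and liver library (right), with replicate numbers, and the mean ± SD of 3 libraries as a bar beside each group. The Apex libraries lie between 192 and 208 CPM for mitosis, above the 9 others, while the replication sums overlap in all 4 regions. The vertical scale differs between panels.

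The ratio of the mitosis class to the replication class, in summed TPM, was 0.433, 0.368 and 0.33 in Apex. It was 0.353, 0.225 and 0.169 in LV, 0.303, 0.199 and 0.229 in VS, then 0.206, 0.206 and 0.255 in OR. LV 1 lay within the Apex values, and all other libraries outside Apex lay below them. In the liver the same ratio was 0.076, 0.0832 and 0.0924 in tdTomato-positive and 0.108, 0.0897 and 0.0937 in tdTomato-negative cells, in a table that was normalized separately.

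Each of the 23 mitosis members had its highest heart value in an Apex library, 7 in Apex 1, 6 in Apex 2 and 10 in Apex 3. For Top2a, LV 1 was about level with the highest Apex library. The replication members had their highest values spread over the regions, 7 of 17 in Apex, 6 in OR, 3 in LV and 1 in VS. The matching shares of all genes are not given here, so these counts describe the members only. In 12 of the 23 mitosis members all 3 Apex libraries lay above all 9 other heart libraries, against 1.68% of all genes tested. These were Ccna2, Ccnb1, Ccnb2 and Cdk1 of the mitotic kinase complexes, Tpx2 and Kif11 of the spindle, Cenpf of the kinetochore, Birc5 of the chromosomal passenger complex, Prc1, Kif23 and Anln of cytokinesis, and Ube2c. The count was 0 of 17 for replication. Without VS 1 the counts were 16 of 23 and 1 of 17 (Pola1), against 2.87% of all genes. Without VS 1 and LV 1 they were 20 of 23 and 1 of 17, against 3.93%.

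**Figure D3:**
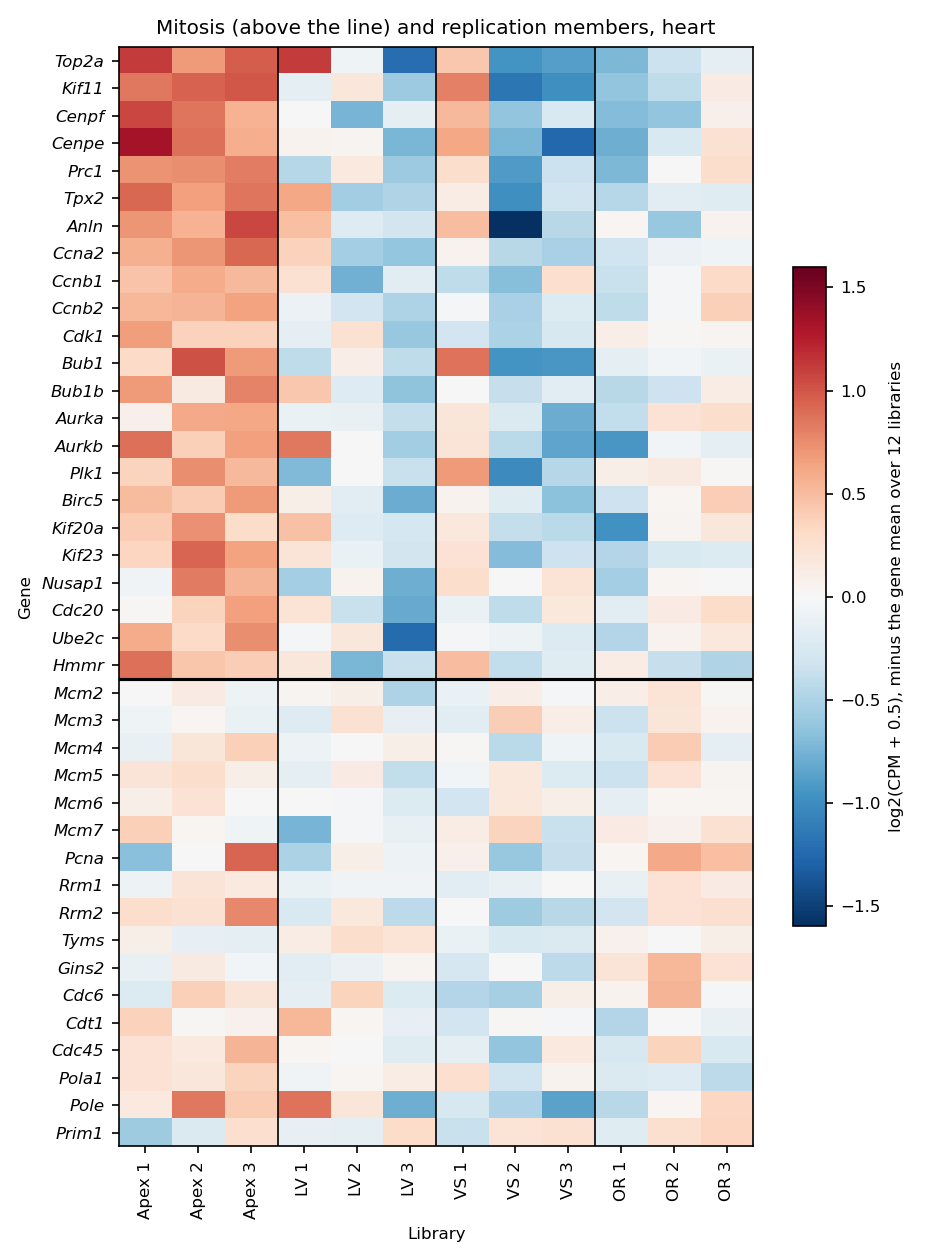
Each cell gives log2(CPM + 0.5) of a gene in 1 heart library, minus its mean over the 12 libraries, for 23 mitosis members (above the line) and 17 replication members (below). Red is above the gene's mean and blue below it. The 3 Apex columns are red in nearly all mitosis rows, LV 1 and VS 1 are mixed, and the replication rows are paler with no region standing out.

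By pairs of regions, Apex lay wholly above LV in 17 of 23 mitosis and 4 of 17 replication members, against 7.35% of all genes. Against VS the counts were 16 of 23 and 3 of 17, beside 6.79% of all genes, and against OR they were 20 of 23 and 2 of 17, beside 13.3%. Between LV, VS and OR, no mitosis member of the first named region lay wholly above the second, and 1 lay wholly below in 2 of the 3 pairs (Plk1 in LV against OR, Cdk1 in VS against OR). Among all genes, the shares wholly below were 2.22% for LV against VS, 14.6% for LV against OR and 6.68% for VS against OR. The replication members had 0 to 2 in either direction in those pairs, where 3.4%, 12.8% and 4.68% of all genes lay wholly above.

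The kinase complexes that drive entry into mitosis consist of Cdk1 and its cyclins. Ccna2 (cyclin A2, chr3:36564865-36573038) was at 13.1, 14.6 and 17.0 CPM in Apex, 11.4, 5.82 and 5.48 in LV, 9.11, 6.25 and 5.91 in VS, then 6.91, 8.11 and 8.26 in OR. Every Apex library was above every other library, with LV 1 closest. Its Apex mean was 14.9 ± 1.94 CPM (SD, n = 3), and its log2 fold change was 0.98 ± 0.27 (SE) over LV, 1.07 ± 0.27 over VS and 0.94 ± 0.27 over OR. Ccnb2 (cyclin B2, chr9:70407689-70421554) was at 9.02, 9.04 and 9.77 CPM in Apex, 5.63, 4.79 and 4.18 in LV, 5.96, 4.07 and 5.15 in VS, then 4.45, 5.93 and 8.04 in OR. The Apex values are close together and above the rest, and OR 3 comes nearest to them. Cdk1 (chr10:69335146-69352912) was at 11.2, 9.0 and 8.94 CPM in Apex, 6.15, 8.15 and 4.33 in LV, 5.43, 4.65 and 5.66 in VS, then 7.38, 6.94 and 7.05 in OR. The groups did not overlap, and LV 2 was the nearest library. The log2 fold change over LV, VS and OR was 0.93 ± 0.25, 0.87 ± 0.25 and 0.59 ± 0.25 for Ccnb2 and 0.65 ± 0.23, 0.89 ± 0.24 and 0.45 ± 0.23 for Cdk1. Ccnb1 (cyclin B1) had group means of 5.47 ± 0.285, 3.18 ± 1.24, 3.07 ± 1.25 and 3.65 ± 0.941 CPM in Apex, LV, VS and OR (SD, n = 3).

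Spindle and chromosome genes held the highest log2 fold change of the 23 in each pair with Apex, Cenpe over LV and VS and Top2a over OR. Tpx2 (chr2:152847964-152895321), which activates Aurora A at the spindle, was at 11.4, 9.42 and 10.9 CPM in Apex, 9.23, 3.8 and 4.03 in LV, 6.38, 2.71 and 4.56 in VS, then 4.12, 5.07 and 5.0 in OR. LV 1 was just under the lowest Apex library. Cenpf (chr1:189640606-189688107), a large kinetochore protein, was at 10.9, 9.39 and 7.58 CPM in Apex, 4.97, 2.77 and 4.41 in LV, 7.33, 3.04 and 4.14 in VS, then 2.89, 3.04 and 5.31 in OR. Here VS 1 was just under the lowest Apex library. Cenpe (chr3:135212563-135273540), a kinetochore motor that moves chromosomes to the spindle equator, was at 6.53, 4.64 and 3.68 CPM in Apex, 2.41, 2.38 and 1.19 in LV, 3.79, 1.19 and 0.675 in VS, then 1.14, 1.87 and 2.81 in OR. VS 1 overlapped Apex, and the other 8 libraries did not. The log2 fold change over LV, VS and OR was 0.89 ± 0.35, 1.21 ± 0.35 and 1.16 ± 0.35 for Tpx2, 1.2 ± 0.35, 0.94 ± 0.35 and 1.31 ± 0.35 for Cenpf and 1.31 ± 0.54, 1.38 ± 0.54 and 1.34 ± 0.54 for Cenpe. Without LV 1 the Tpx2 change over LV was 1.44, and without VS 1 the Cenpe change over VS was 2.39.

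Other spindle and chromosome members had their highest mean in Apex too. Top2a, the topoisomerase that untangles chromosomes, had means of 24.0 ± 3.7, 14.7 ± 11.4, 9.8 ± 6.08 and 9.29 ± 1.86 CPM in Apex, LV, VS and OR. Its LV libraries ran from 5.02 to 27.3 CPM, so that LV 1 was about level with the highest Apex library. Kif11, the motor that pushes the spindle poles apart, had means of 6.15 ± 0.368, 2.64 ± 0.801, 2.65 ± 2.57 and 2.41 ± 0.825 CPM, with VS 1 at 5.61 CPM just under Apex. Nusap1, which stabilises microtubules near chromosomes, had means of 3.9, 1.93, 3.04 and 2.35 CPM, and Hmmr, a spindle assembly factor, of 3.4, 1.68, 2.14 and 1.74 CPM. The checkpoint kinase Bub1 had means of 2.88, 1.3, 1.49 and 1.44 CPM and its relative Bub1b, the checkpoint protein BUBR1, of 9.72, 6.06, 5.62 and 5.53 CPM.

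Mitotic kinases and genes of anaphase also had their highest mean in Apex. Aurka, which matures spindle poles, had means of 5.02 ± 1.1, 3.0 ± 0.373, 2.93 ± 1.12 and 3.71 ± 1.0 CPM in Apex, LV, VS and OR. Aurkb, the kinase of the chromosomal passenger complex, had means of 5.54, 3.95, 2.64 and 2.57 CPM, and Plk1, a kinase of mitotic entry and exit, of 4.14, 2.04, 2.49 and 2.87 CPM. Birc5 (survivin), a passenger subunit, had means of 6.42 ± 0.675, 3.53 ± 1.18, 3.56 ± 0.967 and 4.48 ± 1.23 CPM. Cdc20, an activator of the anaphase-promoting complex, had means of 15.1 ± 3.4, 9.61 ± 3.59, 10.8 ± 2.21 and 12.4 ± 2.12 CPM. Its log2 fold change over OR, the smallest of the 23, was 0.29, and Ube2c had means of 8.42, 4.64, 5.1 and 5.33 CPM.

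Cytokinesis genes act at the midzone where the cell is cut in 2. Prc1 (chr7:80294445-80316259), which bundles midzone microtubules, was at 14.7, 14.98 and 15.8 CPM in Apex, 6.23, 9.78 and 5.68 in LV, 10.7, 4.4 and 6.76 in VS, then 5.11, 8.73 and 10.7 in OR. The Apex libraries were close together and all above the rest. Kif23 (chr9:61917277-61946810), a motor of the centralspindlin complex, was at 7.98, 12.2 and 10 CPM in Apex, 7.23, 5.74 and 4.95 in LV, 7.36, 3.66 and 4.81 in VS, then 4.36, 5.18 and 5.27 in OR. Again LV 1 and VS 1 lay just under Apex. The log2 fold change over LV, VS and OR was 1.07 ± 0.32, 1.06 ± 0.32 and 0.88 ± 0.32 for Prc1 and 0.75 ± 0.27, 0.93 ± 0.27 and 1.03 ± 0.27 for Kif23. Anln, an actin-binding protein of the cleavage furrow, had means of 6.9, 3.89, 2.97 and 3.37 CPM, and Kif20a, a midzone motor, of 8.06, 5.71, 4.82 and 4.91 CPM.

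Replication members are given in the order in which they act. Licensing factors load the MCM helicase on origins. Cdc6 had means of 7.15, 6.5, 5.22 and 7.55 CPM in Apex, LV, VS and OR, and Cdt1 of 11.3, 11.4, 9.42 and 8.82 CPM. The helicase subunits Mcm2 to Mcm6 had Apex means of 23.2, 73.9, 36.5, 28.1 and 98.2 CPM and LV means of 21.4, 75.6, 32.5, 22.5 and 85.8 CPM. VS means were 22.9, 83.6, 29.3, 24.1 and 90.6 CPM, and OR means were 24.9, 75.7, 33.2, 24.4 and 88.9 CPM. Mcm7 (chr5:138164583-138172111) was at 34.4, 26.9 and 25.0 CPM in Apex, 15.4, 25.6 and 24.0 in LV, 28.4, 33.5 and 20.4 in VS, then 28.7, 27.6 and 31.0 in OR. All helicase members overlapped between Apex and the rest of the heart, with LV 1 low for Mcm7. Cdc45 and Gins2 turn the loaded helicase on. Cdc45 had means of 4.15, 3.1, 2.79 and 3.17 CPM, and Gins2 of 1.57, 1.47, 1.28 and 2.11 CPM, with OR the highest region for Gins2.

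The polymerases start with Pola1 and Prim1, the catalytic subunit of polymerase alpha and the primase. Pola1 (chrX:93304766-93632387) was at 8.83, 8.54 and 9.7 CPM in Apex, 7.19, 7.64 and 8.13 in LV, 9.15, 5.92 and 7.81 in VS, then 6.3, 6.39 and 5.46 in OR. Apex lay above all libraries except VS 1. Its log2 fold change was 0.24 ± 0.20 over LV, 0.24 ± 0.20 over VS and 0.58 ± 0.20 over OR. The value over VS was 0.39 without VS 1 and 0.07 without VS 2. Prim1 had means of 7.17, 8.0, 8.3 and 8.87 CPM, lowest in Apex. Pole (chr5:110286319-110337468) was at 1.19, 2.21 and 1.51 CPM in Apex, 2.26, 1.23 and 0.383 in LV, 0.771, 0.575 and 0.338 in VS, then 0.615, 1.05 and 1.4 in OR. VS was low and the other regions overlapped. Pcna (chr2:132249286-132253180) was at 43.4, 69.9 and 133 CPM in Apex, 48.7, 73.7 and 65.5 in LV, 73.4, 45.2 and 53.6 in VS, then 70.9, 106 and 97.3 in OR. The highest and the lowest Pcna value of the heart were both in Apex.

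Enzymes that supply nucleotides close the list. Rrm2 (chr12:24708254-24714146), the small subunit of ribonucleotide reductase that is made in S phase, was at 11.3, 10.97 and 16.02 CPM in Apex, 7.67, 10.4 and 6.75 in LV, 9.22, 6.04 and 6.59 in VS, then 7.34, 10.8 and 11.1 in OR. Apex lay above LV and VS and overlapped OR. Its log2 fold change was 0.62 ± 0.25 over LV, 0.81 ± 0.25 over VS and 0.39 ± 0.25 over OR, the last of which was 0.20 without Apex 3 and 0.22 without OR 1. Rrm1, the large subunit, had means of 58.1, 51.6, 50.7 and 57.8 CPM. Tyms (thymidylate synthase, chr5:30038546-30073645) was at 23.5, 20.0 and 19.8 CPM in Apex, 23.8, 26.6 and 25.6 in LV, 20.3, 18.4 and 18.6 in VS, then 23.0, 21.8 and 23.5 in OR. LV was its highest region and lay wholly above each of the others.

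In the edgeR quasi-likelihood test over the 4 regions, fitted on all 12 heart libraries with Benjamini-Hochberg adjustment over all 13542 genes, 0 of the 23 mitosis and 0 of the 17 replication members passed the threshold of 0.05. The share of all genes that passed was 0%. Adjusted p was 0.623 to 0.655 for the mitosis members and 0.623 to 0.906 for the replication members, and Ccna2 had the smallest unadjusted p of the 40. At an unadjusted p under 0.05 there were 12 mitosis members, 2 replication members (Rrm2 and Tyms) and 1084 of all genes. DESeq2 passed 1 member, Ccna2, at an adjusted p of 0.0278, among 0.642% of all genes.

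None of the 40 members passed in any of the 6 pairs of regions in the same edgeR fit, where 0% of all genes passed in each. The counts at an unadjusted p under 0.05 for mitosis were 18 of 23 for Apex against LV, 18 against VS and 12 against OR, among 728, 1011 and 1642 of all genes. For replication they were 1, 2 and 1 of 17. For LV against VS, LV against OR and VS against OR they were 0 of 23 for mitosis and 1, 0 and 0 of 17 for replication, among 394, 1564 and 952 of all genes. DESeq2 passed 0 of 40 members in each pair. It passed 0.177%, 0.14% and 0.347% of all genes for Apex against LV, VS and OR, and 0.133%, 0.362% and 0.17% for LV against VS, LV against OR and VS against OR.

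All 23 mitosis members had log2 fold changes above 0 in each of the 3 pairs with Apex, which share the Apex libraries. Their median was 0.86 over LV (0.49 to 1.31), 0.89 over VS (0.36 to 1.38) and 0.88 over OR (0.29 to 1.36), while the median over all genes was -0.01, -0.01 and 0.00. The replication members had medians of 0.17, 0.24 and 0.01, with 13, 15 and 9 of 17 above 0. In pairs without Apex the medians were close to 0 for both classes. They were 0.03, -0.04 and -0.05 for mitosis and 0.13, -0.11 and -0.18 for replication in LV against VS, LV against OR and VS against OR.

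**Figure D4:**
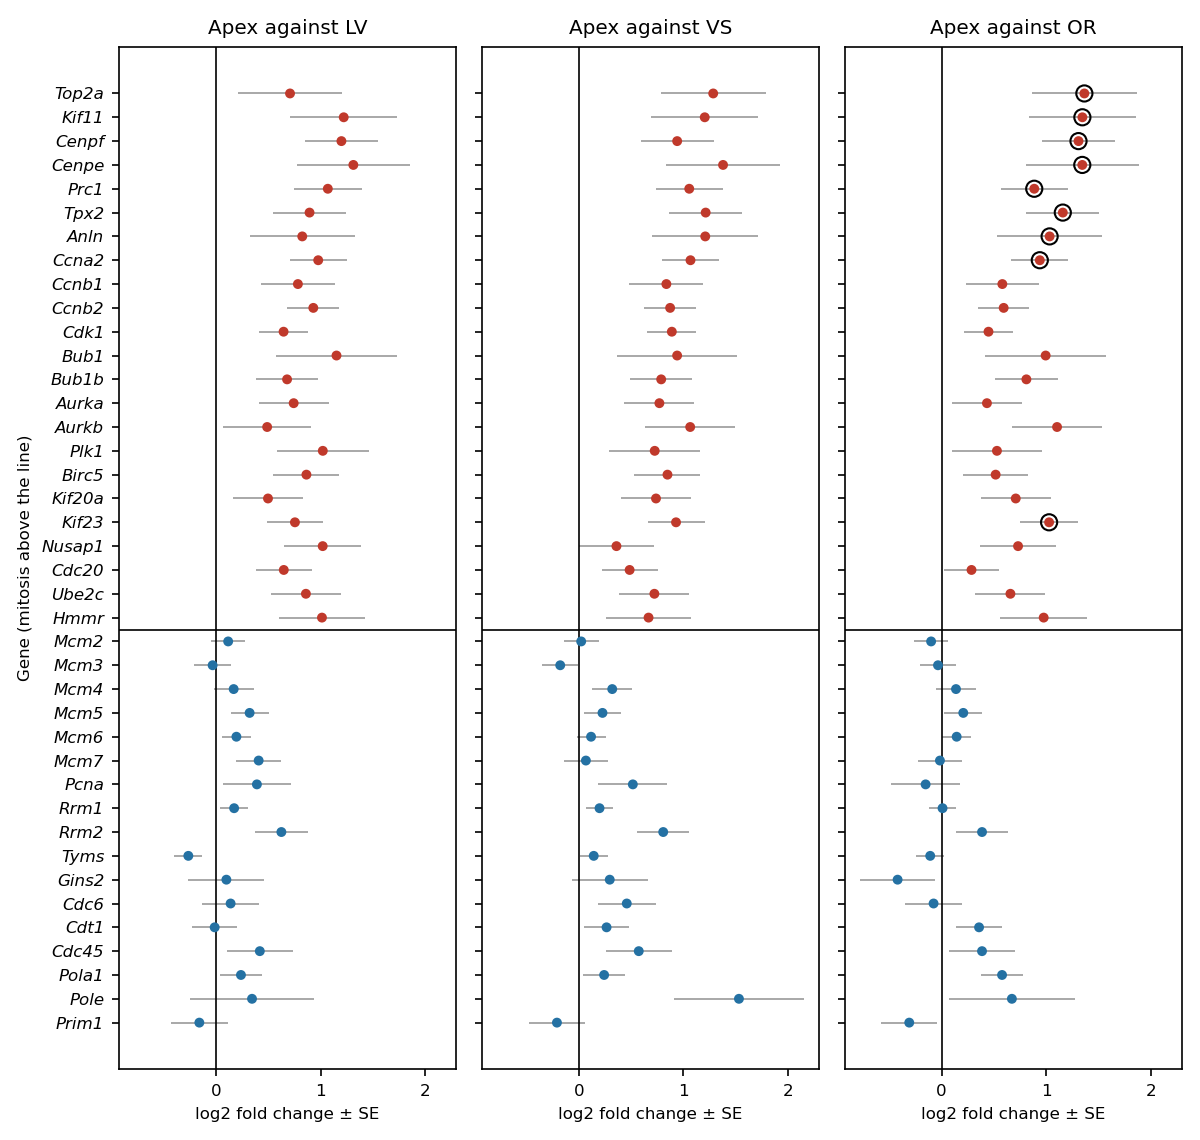
Log2 fold change ± SE of Apex over LV, VS and OR for each member, from edgeR on all 12 heart libraries; mitosis in red above the line, replication in blue below. Ringed genes passed an adjusted p of 0.05 when only the 6 libraries of that pair were fitted. All mitosis points lie to the right of 0, with 9 ringed against OR and none ringed against LV or VS.

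When only the 6 libraries of Apex and OR were fitted, 9 of 23 mitosis members rose in Apex, and 0 of 17 replication members did, against 3.04% of all genes that rose. Those 9 were the chromosome and kinetochore genes Top2a (log2 fold change 1.38 ± 0.18, adjusted p = 0.0128 in edgeR), Cenpf (1.32 ± 0.27, 0.0194) and Cenpe (1.35 ± 0.36, 0.047), the spindle genes Kif11 (1.36 ± 0.27, 0.0193) and Tpx2 (1.17 ± 0.18, 0.0128), the cyclin Ccna2 (0.95 ± 0.17, 0.014), and the cytokinesis genes Prc1 (0.90 ± 0.23, 0.0463), Anln (1.05 ± 0.27, 0.0436) and Kif23 (1.04 ± 0.21, 0.0193). Pola1 was closest among replication members, with an adjusted p of 0.0698 in edgeR. With 1 of the 6 libraries left out the count of 9 was 5 without Apex 1, 0 without Apex 2, 7 without Apex 3, 3 without OR 1, 3 without OR 2 and 0 without OR 3. The shares of all genes that rose in those 6 fits were 0.856%, 0%, 2.84%, 0.752%, 0.794% and 0.0075%, in the same order. Fitted on their own libraries, the pairs of Apex with LV and with VS passed 0 of 40 members each, where 0.0304% and 0% of all genes rose. Without LV 2 the pair with LV passed 1 mitosis member, among 0.0223% of all genes that rose. Without VS 1 the pair with VS passed 11 mitosis members and 1 replication member, among 1.2%.

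The comparisons with VS turned on the library VS 1. It held 5.61 CPM of Kif11, 3.3 CPM of Bub1 and 4.59 CPM of Plk1, while VS 2 and VS 3 held 1.07 and 1.27, 0.575 and 0.591, and 1.07 and 1.82 CPM. VS 1 also differed from VS 2 and VS 3 outside the members. Its ribosomal protein, cardiomyocyte and erythroid gene sums, described below, were 5303, 523 and 564 CPM. Those sums were 11880, 2596 and 2874 CPM in VS 2 and 11060, 1507 and 1758 CPM in VS 3. Among all heart libraries, VS 1 had the lowest of each sum, and VS 2 the highest cardiomyocyte and erythroid sums. The erythroid sum of Apex 1, at 603 CPM, was close to that of VS 1. Without VS 1, edgeR passed 11 of 23 mitosis members and 0 of 17 replication members over the 4 regions, among 10.8% of all genes. In that setting 13 mitosis members rose in Apex over VS, and 1 replication member, Rrm2, did, among 4.37% of all genes. Against OR 5 mitosis members rose (Kif11, Cenpf, Tpx2, Ccna2 and Kif23), among 2.38%, and against LV 0 of 40 passed. The largest of these changes over VS were Kif11 and Cenpe, each with a log2 fold change of 2.39, with adjusted p of 0.00228 and 0.00818 in edgeR. Limma's voom, which gives libraries that stand apart less weight, passed 17 mitosis and 2 replication members over the 4 regions, among 21.5% of all genes. For Apex over LV, VS and OR it passed 3, 17 and 13 mitosis members and 0, 2 (Rrm2 and Pole) and 1 (Pola1) replication members, all higher in Apex, where 0.0738%, 5.89% and 5.82% of all genes were higher.

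Among markers of other cells, only the neutrophil and granule precursor sums set Apex apart from every other region. The summed level of 10 neutrophil and granule precursor markers was 12.9 to 14.6 CPM in Apex, 1.92 to 3.63 in LV, 3.88 to 5.33 in VS and 0.805 to 8.65 in OR, with 9, 3, 4 and 1 of the 10 above 0 in every library of the region. Mpo and Elane, granule enzymes made by dividing precursors in bone marrow, were at 1.23, 0.773 and 0.871 and at 0.742, 0.211 and 0.379 CPM in Apex and at 0 in all 9 other libraries. Leukocyte markers (8 genes) summed to 12.7 to 18.4 CPM in Apex and 10.5 to 21.6 CPM elsewhere. Ribosomal protein genes (13) summed to 7948 to 8849 CPM in Apex, 8383 to 8702 in LV and 10970 to 12140 in OR, and to 5303 to 11880 in VS. Cardiomyocyte markers (6) summed to 934 to 1165 CPM in Apex and 952 to 1251, 523 to 2596 and 1300 to 1762 in LV, VS and OR. Erythroid markers (6) summed to 603 to 1363 CPM in Apex and 857 to 1272, 564 to 2874 and 1953 to 2132 in the other regions. Fibroblast markers (5) summed to 146 to 250 CPM in Apex, inside the 140 to 609 CPM of the rest. Mural cell markers (5) summed to 1013 to 1929 CPM in Apex and 640 to 1431 CPM in the rest. Apex 3, at 1929 CPM, lay above every other heart library, while Apex 1 and Apex 2 overlapped the rest. Whether these cells contribute to the mitosis values was not tested.

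Other genes of the same pathways are given from separate lists. Of 30 other mitosis genes, 25, 27 and 29 had log2 fold changes above 0 for Apex over LV, OR and VS, with medians of 0.43, 0.56 and 0.58, and 0 passed in edgeR on 12 libraries. Their summed level, unlike that of the members, overlapped between all 4 regions. It was 215 to 283 CPM in Apex, 213 to 232 in LV, 197 to 244 in VS and 203 to 268 in OR. In summed TPM their Apex mean was the lowest, at 362 against 388, 389 and 381 in LV, VS and OR. Kif2c, a motor that takes microtubules apart, was at 3.53, 1.69 and 2.08 CPM in Apex and 0.46 to 1.4 elsewhere, and Kif4, a chromosome motor, at 4.97, 7.59 and 5.91 CPM against 2.22 to 4.37. Nek2, a centrosome kinase, was at 3.82, 5.13 and 6.71 CPM against 1.15 to 4.14. Pttg1 (securin, which holds back the cut between sister chromatids) lay the other way, at 53.3 to 80.1 CPM in Apex and 73.8 to 133 elsewhere. Smc2 of condensin was at 15.1 to 16.2 CPM in Apex and 8.59 to 16.5 elsewhere, and Cdca8 of the passenger complex at 6.87 to 8.3 against 3.76 to 7.56. Other replication genes (30) had medians of 0.07, -0.12 and 0.08, and 0 passed in that fit. Gins4 (helicase activator) was at 23.4 to 29.1 CPM in Apex and 18.4 to 30.3 elsewhere, and Orc6 (origin recognition) at 13.99 to 19.0 against 11.6 to 24.0. Tk1 (thymidine kinase) was at 3.8 to 4.62 CPM in Apex against 2.26 to 4.64, Pold1 (polymerase delta) at 43.5 to 54.1 against 43.3 to 77.6, Cdc7 (origin-firing kinase) at 1.3 to 3.76 against 1.23 to 4.41, and Slbp (histone mRNA binding) at 41.6 to 90.6 against 38.0 to 70.3.

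Regulators of the cell cycle (20 genes) had medians of 0.34 over LV, 0.35 over OR and 0.30 over VS, with 0 passed in the fit on all libraries. E2f1, a transcription factor of the G1/S step, was at 8.83 to 11.1 CPM in Apex and 4.29 to 8.09 elsewhere, without overlap. Foxm1, a transcription factor of mitotic genes, was at 6.83, 9.32 and 9.81 CPM in Apex against 2.72 to 7.85 elsewhere. Foxm1 rose in Apex over OR in the fit on those 6 libraries, with a log2 fold change of 0.93 ± 0.24 and an adjusted p of 0.0416 in edgeR. That call was lost in 5 of 6 fits with 1 library of the pair left out, and remained without Apex 1 (0.0385). Mybl2, which acts with Foxm1, was at 2.05 to 3.34 CPM in Apex against 0.237 to 2.78, Ccnd2 (cyclin D2) at 199.5 to 224 against 148 to 249.7, Cdk4, its kinase, at 119.9 to 125 against 99.8 to 166, and Lin54, a CHR-binding subunit, at 17.4 to 20.3 against 9.99 to 17.5.

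Calls in these lists depended on the tool and on VS 1. DESeq2 passed 1 gene, Kif2c, over the 4 regions (adjusted p = 0.0278) and in Apex over LV (log2 fold change 2.02, 0.0333). Without VS 1, edgeR passed 3 mitosis genes (Kif2c, Kif4 and Smc4), 1 replication gene (Pold2) and 2 regulators (Ccnd2 and Cdk4) over the 4 regions. In that setting Kif2c, Kif4, Ckap2l, Racgap1, Ect2, Smc4 and E2f7 rose in Apex over VS, and Pttg1, Pold1 and Pold2 fell, where 7.33% of all genes fell. Over OR, Smc4 rose and Cdk4 fell, where 3.87% of all genes fell. Voom passed 15 of 30 mitosis genes, 2 of 30 replication genes (Gins4 and Pold2) and 5 of 20 regulators (Foxm1, Mybl2, Ccnd2, Cdk2 and Cdk4) over the 4 regions. The other shares of all genes in these settings are those given for the members.

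Mki67, the proliferation marker that drives the recombinase in the liver mice, was at 23.2, 21.6 and 22.0 CPM in Apex, 12.04, 9.74 and 8.4 in LV, 25.2, 2.18 and 4.47 in VS, then 6.2, 5.11 and 10.3 in OR. Only VS 1 exceeded the Apex libraries, and it was the highest of the 12. On the 6 libraries of each pair, edgeR gave a log2 fold change of 1.15 ± 0.16 over LV (adjusted p = 0.0272) and 1.64 ± 0.23 over OR (0.0128), and over VS the log2 fold change was 1.06 with an adjusted p of 0.933. With 1 library of the pair left out, the call over LV was lost in 6 of 6 fits, with adjusted p of 0.0518 to 0.218 in edgeR, and the call over OR was lost without Apex 2 (0.0741). On all 12 libraries edgeR did not pass Mki67, with adjusted p of 0.625 over the 4 regions, 0.93 over LV, 0.693 over VS and 0.379 over OR. Without VS 1 it passed over VS (2.74, 0.000735) and over OR (1.64, 0.00833). Limma's voom passed it over LV (1.18, 0.0425), VS (2.28, 0.00555) and OR (1.7, 0.00452).

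In the liver the mitosis members were at low levels. Bub1b (4.84 TPM) and Cdk1 (4.15 TPM) led, followed by Cdc20 (2.57 TPM), Ube2c (2.45 TPM) and Aurka (1.89 TPM), and the lowest was Bub1 at 0.0583 TPM. Replication members reached 73.8 TPM for Pcna, 69.8 TPM for Mcm3 and 40.5 TPM for Mcm6, down to 0.25 TPM for Cdc6. The summed mitosis level was 38.6, 38.9 and 42.4 CPM in tdTomato-positive cells and 58.1, 40.8 and 43.8 CPM in tdTomato-negative cells. The replication sums were 432, 424 and 405 CPM and 453, 413 and 441 CPM. Both classes overlapped between the groups, and negative 1 held the highest value of 15 of the 23 mitosis members. For that count too, the share of all genes is not given here.

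Deposited counts of the 3 members that did not pass the filter were 9, 5 and 8 against 42, 15 and 8 for Ccnb1, and 2, 1 and 0 against 15, 3 and 3 for Bub1, in tdTomato-positive against tdTomato-negative libraries. Hmmr had 3.06, 10.1 and 6.06 against 9, 18.6 and 7.05 expected counts. In the 1 library with 0 counts of Bub1, a count of 0 allows up to 3 counts. Counting error alone is large at these depths.

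None of the 20 mitosis members tested lay wholly higher in tdTomato-positive cells, where 10.7% of all genes did, and 2 lay wholly lower, where 9.91% did. Those 2 were Kif20a and Ccnb2. Of 17 replication members, Mcm6, Rrm1 and Pola1 lay wholly higher and Tyms wholly lower. The edgeR test passed 0 of 37 members, and 0% of all 13115 genes, while 1872 genes had an unadjusted p under 0.05. DESeq2 passed 5.21% of all genes and 0 of the members. The median log2 fold change was -0.44 for mitosis, with 2 of 20 above 0, and -0.11 for replication, with 6 of 17 above 0, beside 0.00 over all genes.

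**Figure D5:**
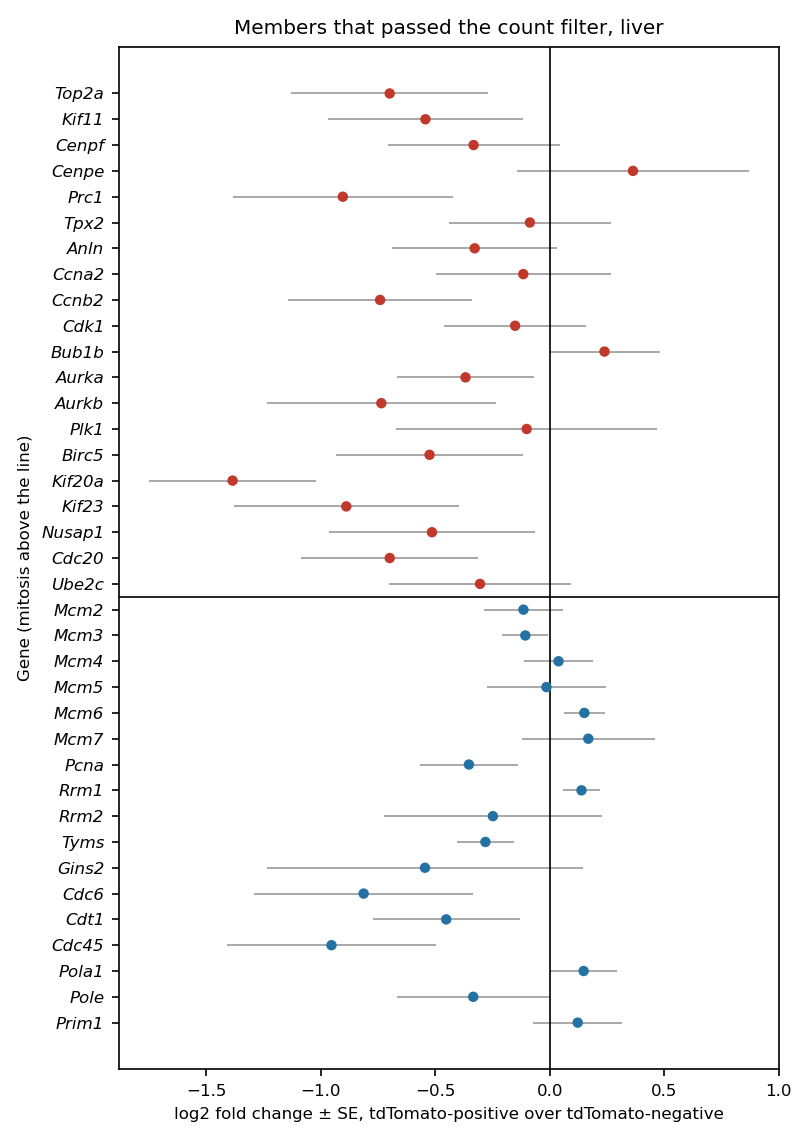
Log2 fold change ± SE of tdTomato-positive over tdTomato-negative liver libraries for the 37 members that passed the count filter, from edgeR; mitosis in red above the line, replication in blue below. Bub1, Ccnb1 and Hmmr are not drawn. The points of 18 of 20 mitosis members lie left of 0, with Kif20a farthest, and no gene passed the threshold.

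Kif20a, the midzone motor, was at 0.564, 0.54 and 0.783 CPM in positive and 2.04, 1.43 and 1.48 CPM in negative cells. It had no overlap and a log2 fold change of -1.39 ± 0.37, with an adjusted p of 0.276 in edgeR. Prc1 was at 0.403, 0.424 and 0.709 against 1.32, 0.983 and 0.585 CPM (-0.90 ± 0.48), and Kif23 at 0.725, 0.617 and 0.783 against 1.93, 0.614 and 1.4 CPM (-0.89 ± 0.49). Means of these 3 cytokinesis genes were higher in the negative group, and Prc1 and Kif23 overlapped between groups. Ccnb2 was at 0.403, 0.501 and 0.597 against 0.717, 1.06 and 0.741 CPM (-0.74 ± 0.40). Cdc20 was at 2.22, 2.0 and 1.79 against 4.04, 3.97 and 1.75 CPM (-0.70 ± 0.39), and Top2a at 0.887, 1.89 and 2.35 against 3.4, 2.13 and 2.81 CPM (-0.70 ± 0.43). Both overlapped, in Cdc20 through negative 3. The Top2a change was -0.38 without positive 1, and the Kif23 change -0.51 without negative 1. Of the 20, Cenpe and Bub1b lay on the other side of 0, with means of 0.54 against 0.419 and 11.7 against 9.9 CPM.

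Among replication members, Tyms was at 15.5, 16.9 and 14.5 against 20.8, 18.3 and 17.9 CPM (-0.28 ± 0.12, adjusted p = 0.374 in edgeR) and did not overlap. Cdc45 was at 0.806, 0.578 and 0.895 against 1.77, 0.778 and 1.87 CPM (-0.95 ± 0.46), and Cdc6 at 0.403, 0.81 and 0.336 against 1.09, 0.737 and 0.897 CPM (-0.81 ± 0.48). Both overlapped through negative 2, and the Cdc6 change was -1.28 without positive 2. Mcm6 was at 82.5, 75.5 and 74.0 against 69.5, 73.2 and 66.2 CPM (0.15 ± 0.09), and Rrm1 at 49.7, 46.7 and 46.8 against 41.5, 43.9 and 44.6 CPM (0.14 ± 0.08). These 2 were higher in every positive library. Pcna was at 43.3, 47.2 and 42.3 against 72.0, 58.2 and 39.3 CPM (-0.35 ± 0.21), with negative 3 below the positive libraries. The Pcna change was -0.14 without negative 1 and -0.57 without negative 3.

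Negative 3 also stood apart from negative 1 and 2 by markers of other cells. Kupffer cell markers (5 genes) summed to 649 to 1279 CPM in tdTomato-positive libraries, and to 35.1 to 3697 CPM in tdTomato-negative ones, where negative 3 was the highest. Leukocyte markers (8) summed to 630 to 912 against 205 to 1423 CPM, erythroid markers (6) to 2187 to 3368 against 95.4 to 1579 CPM and hepatocyte markers (5) to 140 to 181 against 144 to 516 CPM. In negative 1 and 2, Kupffer cell markers summed to 35.1 and 67.1 CPM and leukocyte markers to 205 and 311 CPM. Erythroid markers summed there to 95.4 and 117 CPM and hepatocyte markers to 516 and 430 CPM. Leaving out negative 3 thus leaves groups that do not overlap in any of these sums. Endothelial markers (7) summed to 6548 to 6874 against 5252 to 6151 CPM. All 5 Kupffer cell, 8 leukocyte and 5 hepatocyte markers were above 0 in every library, and their part in the liver values was not tested. Without negative 3, edgeR gave lower levels in tdTomato-positive cells for Ccnb1 (log2 fold change -1.95, adjusted p = 0.0352), Kif20a (-1.47, 0.0283) and Cdc20 (-1.01, 0.0222) of 21 mitosis members tested, against 16.1% of all genes lower. For replication Pcna was lower (-0.57, 0.0058) and Mcm7 higher (0.56, 0.0212), where 15.4% of all genes were higher. Those shares of all genes are close to or above the shares of the members. With voom, Kif20a, Cdc20 and Pcna were lower, among 10.1% of all genes that were lower.

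Mki67 in the liver was at 0.403, 0.424 and 0.336 CPM in tdTomato-positive and 1.93, 1.47 and 1.36 CPM in tdTomato-negative cells, a log2 fold change of -2.02 ± 0.37 with an adjusted p of 0.276 in edgeR. The values did not overlap, and Mki67 is also the gene that drives Ki67-CrexER in both groups. It was lower at an adjusted p of 0.00615 in DESeq2 (-2.06), 0.0132 in limma's voom (-2.03) and 0.00682 in edgeR without negative 3 (-2.13). Of the other lists, 22 of 30 mitosis genes, 30 of 30 replication genes and 18 of 20 regulators passed the filter, and 0 of them passed the edgeR test on 6 libraries. Their median log2 fold changes were 0.14, 0.10 and -0.13. Smc4 of condensin was at 30.2 to 39.7 against 25.1 to 29.6 CPM, Kif4 at 7.82 to 9.4 against 3.11 to 8.15, Mad2l1 (checkpoint) at 2.94 to 5.3 against 2.46 to 2.98 and Ndc80 (kinetochore) at 0.925 to 1.38 against 0.368 to 0.897. Cks2, a Cdk1 subunit, lay the other way at 3.28 to 4.67 against 5.11 to 8.61 CPM, and so did Ckap2l (spindle) at 0.806 to 1.42 against 1.25 to 6.57 CPM.

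Of other replication genes, Dut (dUTP removal) was at 34.3 to 37.2 against 27.3 to 35.9 CPM, Gmnn (geminin, the licensing inhibitor) at 7.38 to 10.1 against 5.69 to 8.46, Gins3 at 6.68 to 7.21 against 4.34 to 6.08 and Cdc7 at 1.77 to 3.27 against 1.56 to 2.0. Uhrf1 (DNA methylation maintenance) was at 1.19 to 2.12 against 2.38 to 3.47 CPM and Rfc5 (clamp loader) at 9.43 to 11.4 against 11.3 to 13.3. Regulators included Cdk6 (G1 kinase) at 8.95 to 10.4 against 13.6 to 31.7 CPM, Cdc25a (CDK phosphatase) at 13.5 to 13.9 against 16.8 to 22.9 and E2f7 (E2F repressor) at 4.55 to 5.98 against 6.2 to 13.3. Cdk2 was at 22.9 to 25.9 against 25.3 to 36.4 CPM, Lin54 at 13.3 to 16 against 12.1 to 13.1 and Ccnd2 at 237 to 319.8 against 262 to 394.

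The other tools passed some genes of these lists. DESeq2 passed 1, Cdk6, which was lower in tdTomato-positive cells (-1.26, adjusted p = 0.00746). Voom passed Kif4 and Pold1 as higher, among 9.68% of all genes that were higher, and Cks2, Cdk2, Cdk6 and Cdc25a as lower. Without negative 3, edgeR passed Kif4, Pold1, Fen1 (flap nuclease), Tk1 and Gmnn as higher, and Ckap2l, Cks2, Orc6, E2f7, Cdk2, Cdk6 and Cdc25a as lower, beside the shares of all genes given for that setting.

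Several members share exon bases with a gene of the other strand in the GENCODE M21 annotation, and the strand used in counting is not given in the sources used here, so reads of the 2 genes cannot be told apart there. These were 11 of the 40, among them Ccna2 (510 bases with Exosc9), Prc1 (911 with Rccd1), Kif20a (1271 with Cdc23), Ube2c (592 with Tnnc2), Cdc45 (209 with Ufd1), Mcm7 (321 with Ap4m1) and Gins2 (2758 with Gse1). Tnnc2 encodes a muscle troponin. Ccnb1, Ccnb2, Pcna and Tyms have pseudogenes listed in RefSeq, and reads of such genes could be split. Deposited counts of Ccnb1, Ccnb2 and Pcna were whole in every library, while those of Tyms were whole in none. Deposited counts were not whole in at least 1 library for 13 of 40 members in the heart and 11 in the liver. In the heart, Cenpf, Ccna2 and Hmmr had such counts in 12 of 12 libraries, Kif20a in 11, and Prc1 and Ube2c in 9.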

How the data were processed

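Per the labels' protocols, poly(A) RNA was copied from oligo(dT) primers, amplified by PCR and read as paired 100-base reads. The submitters' processing notes name mm10; the aligner, the counting program and the annotation are not given in the sources used here. Per the file headers, the authors deposited 1 table per tissue with a TPM column and an expected count column per library. All 36 per-library columns were matched by name, with 0 left over. Region OR in the sample titles is OZ in the columns.

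Expected counts were rounded and tested with edgeR 4.0.16 in R 4.3.3, by quasi-likelihood F tests with robust dispersion, TMM scaling and the default count filter, on 1 mean per group, with all 12 heart or all 6 liver libraries. P-values were adjusted by Benjamini-Hochberg over all genes tested, with a threshold of 0.05. Standard errors (SE) were obtained by dividing the absolute log2 fold change by the root of the F statistic. "Pair alone" fits used 6 libraries. DESeq2 1.42.0, limma 3.58.1 voom with sample quality weights, another scaling (RLE), no filter, a block on replicate number and the omission of each library were alternatives. Omitting 1 library from a pair alone, and the levels without VS 1 and LV 1, were added after the data were seen.

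The members and lists were chosen with earlier results of these data known. Per-library values are given for the 8 mitosis and 6 replication members with the smallest p over the heart regions, and 6 of each in the liver, with up to 6 genes from each other list. Kif11, Bub1 and Plk1 in VS were picked after their values were seen. The labels do not say whether a shared replicate number marks a shared mouse, so regions may share mice. After each gene's group mean was removed, the correlations of same-number libraries were near 0 or low. Libraries were not treated as pairs. The workflow was tested on simulated data.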

Additional observations from a re-analysis of the deposited data

How the results depend on the processing

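Among the counts, medians and named members recomputed, no value past a threshold changed sign. With 1 library left out, class medians near 0 did change sign: mitosis in LV over VS (-0.17 to 0.33), LV over OR (-0.19 to 0.05) and VS over OR (-0.37 to 0.15), and replication in Apex over OR, LV over VS (-0.0074 to 0.15) and the liver (-0.22 to 0.07). Of the counts of called members and the median log2 fold changes, 623 values stayed on the same side of the threshold or within the tolerance used, and 31 moved. Without VS 1, mitosis calls moved from 0 to 11 over the 4 regions, 13 for Apex over VS and 5 over OR, and replication calls to 1 over VS. The median mitosis change over VS moved from 0.89 to 1.25 without VS 1 (1.25 in the pair alone) and to 1.19 with voom. Voom with sample quality weights passed 17 mitosis and 2 replication members over the 4 regions, 3 and 0 for Apex over LV, 17 and 2 over VS, 13 and 1 over OR, and 2 and 1 in the liver, where they were lower; DESeq2 passed 1 over the 4 regions. The pair of Apex and OR alone passed 9, and 5, 7, 3 and 3 without Apex 1, Apex 3, OR 1 and OR 2, and 0 without Apex 2 or OR 3. The pair with VS, without VS 1, passed 11 mitosis members and 1 replication member, and the pair with LV, without LV 2, passed 1. Without negative 3 the liver passed 3 mitosis and 2 replication members.

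The median replication change moved for Apex over OR from 0.01 to 0.16 without Apex 1 and to 0.15 in the pair without OR 2, and for VS over OR from -0.18 to -0.054 without OR 2 (-0.057 in the pair). With 1 library left out in turn, calls were 0 to 3 and 0 to 2 in the liver for mitosis and replication. The medians were 0.72 to 1.25 for mitosis over VS, -0.027 to 0.16 for replication over OR and -0.25 to -0.054 for replication in VS over OR. Summed TPM put Apex at 1.94 times OR for mitosis and 1.16 times for replication.

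With a replicate block, 0 members passed in any comparison, as without it, and at most 1 of all genes did; the mitosis medians of Apex over LV, VS and OR were 0.90, 0.90 and 0.89. Correlations between libraries were taken on values from which each gene's group mean had been removed, so they do not compare whole profiles. On these values, libraries of the same number correlated at -0.0572 to 0.235 in the heart and -0.207 to -0.0103 in the liver. Those of other numbers, between groups, correlated at -0.17 to 0.178 and -0.148 to 0.211. These ranges overlap and, with 3 libraries per group, cannot show whether a number marks a shared mouse. The numbers were not taken as pairs. Low counts limit the precision of the liver mitosis members.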
